A study of Homo sapiens with 27 samples.

Results

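The human mitochondrial genome carries 7 genes for subunits of complex I, the NADH dehydrogenase at the entry of the respiratory chain: MT-ND1, MT-ND2, MT-ND3, MT-ND4, MT-ND4L, MT-ND5 and MT-ND6. These 7 were taken by Ensembl identifier from the 34464 genes of the deposited expression table, and all 7 were among the 14624 genes with a mean above 1 FPKM (fragments per unit of transcript length and of sequencing depth) that were tested. The table held 27 libraries of poly(A)+ RNA from U2OS, a human osteosarcoma cell line. Cells carried a control shRNA or 1 of 2 lentiviral shRNAs, named ‘TPR A’ and ‘TPR D’, that target TPR. TPR is a protein of the basket on the nuclear side of the nuclear pore. From each of 9 cultures, 3 per shRNA, a part of the cells was kept as total RNA and the rest was separated with detergent into a nuclear and a cytoplasmic/ER fraction, so that each of the 9 groups had 3 libraries. All cells, controls included, came from the same line and carried a lentiviral shRNA, and the study calls the replicates biological without saying whether they came from separate infections, so that the tests measured the spread between these samples.

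The mitochondrial genome is transcribed inside the organelle from both of its strands into long precursors, which are cut around the tRNAs into separate mRNAs. These mRNAs are made, given poly(A) tails, translated and degraded inside mitochondria, and they do not pass the nuclear pore. Their proteins form the proton-pumping membrane arm of complex I, while the arm that takes electrons from NADH is built only of subunits encoded in the nucleus, made in the cytosol and imported.

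The positions and ends of the 7 coding sequences were read from chromosome M of GRCh37 with the GENCODE annotation. MT-ND1 lies at 3307 to 4262, MT-ND2 at 4470 to 5511, MT-ND3 at 10059 to 10404, MT-ND4L at 10470 to 10766, MT-ND4 at 10760 to 12137 and MT-ND5 at 12337 to 14148, all on the plus strand. MT-ND6, at 14149 to 14673, is the only one of the 7 on the minus strand. Each gene is a single exon. The last 15 bases of each are shown because 4 of the 7 depend on the poly(A) tail, the feature by which these libraries were selected, to complete their stop codon; the capitals mark the stop codon, or the part of it that the genome encodes.
MT-ND1: tccccctcaaaccTA
MT-ND2: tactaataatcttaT
MT-ND3: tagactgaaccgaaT
MT-ND4: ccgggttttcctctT
MT-ND4L: ctactccaatgcTAA
MT-ND5: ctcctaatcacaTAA
MT-ND6: gctcgggggaatAGG

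MT-ND1 has 956 bases and 2 bases left over after whole codons, and MT-ND2, MT-ND3 and MT-ND4, with 1042, 346 and 1378 bases, have 1 left over. MT-ND4L, MT-ND5 and MT-ND6, with 297, 1812 and 525 bases, end in a complete stop. Background knowledge sets the last apart, since mature MT-ND6 mRNA in human cells is held to carry little or no poly(A) tail. Its sequence also differed in base makeup: G made up 35.6% of the MT-ND6 coding strand and 9.5% to 12.1% of the other 6.

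In a pair of places these genes touch, and both bear on how reads can be assigned. MT-ND4L and MT-ND4 share 7 bases, in capitals in the first line, and are carried on the same mRNA. MT-ND5 and MT-ND6 meet end to end on opposite strands with 0 bases between them; the capitals in the second line are the stop codon of MT-ND5 followed by the complement of that of MT-ND6. Both lines are the plus strand of GRCh37.
Overlap, chrM:10748-10777: aaacctactccaATGCTAAaactaatcgtc
Ends, chrM:14134-14163: ctcctaatcacaTAACCTattcccccgagc

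The library kit keeps the strand, but whether the counting used it was not stated, so reads from MT-ND6 and from transcripts antisense to it that run on from MT-ND5 cannot be told apart. Nuclear copies are a further limit. MT-ND2 had a copy over its whole length at 98.4% identity on chromosome 1 (565020 to 566061), annotated as the pseudogene MTND2P28. A stretch of chromosome 5 within PCBD2 held copies of MT-ND4 (95.8% identity over 99.9% of the gene), MT-ND4L (94.9% over the whole gene), MT-ND5 (93.0% over the whole gene) and MT-ND6 (95% over 99.8%). The closest copies over nearly all of MT-ND1 and MT-ND3 matched at 82.1% and 86.4%, but a copy of at least 95% identity covered 36.8% of MT-ND1. The transcripts used for quantification were those of protein-coding and lncRNA genes, and the part of nuclear copies in the values was not tested.

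The shRNAs lowered their target: TPR was 26.4 ± 1.57 FPKM (SD, n = 3) in control total libraries, 4.17 ± 0.654 with TPR A and 4.66 ± 1.39 with TPR D. The fractions were checked by comparing each library with the means of the 3 fractions over all tested genes. Of 27 libraries 25 were nearest to their own fraction. The library labelled control total replicate 2 was nearest to the nuclear libraries and the library labelled control nuclear replicate 2 was nearest to the total libraries. Their labels were kept, and most of the members' comparisons that touch them are given with and without control replicate 2. Leaving that replicate out, the nuclear RNAs MALAT1 and NEAT1 had a median of 22.5 and 35.1 FPKM in nuclear libraries. Their medians were 8.56 and 9.35 in cytoplasmic/ER libraries, but 126 and 108 in total libraries. Of 4 cytosolic mRNAs checked, GAPDH, ACTB and EEF1A1 were higher in nuclear libraries (7072, 4981 and 6666) than in total libraries (3123, 2560 and 5151). RPLP0 was lower (3048 against 3685). All 4 were highest in cytoplasmic/ER libraries (10547, 6190, 10707 and 11893). FPKM is a proportion, so these medians do not give the amount of RNA in a fraction. Of the mesenchymal markers checked, VIM and SPARC were at 854 and 269 FPKM or more in every library and COL1A2 at 0.744 or less. Of the markers of other cell types the liver gene ALB was at 0.0481 FPKM or less, the epithelial EPCAM at 1.43 to 6.87 and CDH1 at 0.216 to 1.67, and the neuronal SYP at 1.69 to 15.5; their part in the results was not tested.

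The 7 transcripts together made up several percent of all FPKM in total RNA, most in the cytoplasmic/ER fraction and under 1% in the nuclear fraction. In cytoplasmic/ER libraries their share was 9.01%, 8.96% and 6.89% in the control replicates 1 to 3, 10.1%, 8.90% and 7.62% with TPR A, and 9.56%, 7.74% and 9.14% with TPR D. In total libraries it was 5.00%, 0.211% and 6.02% in control, 4.45%, 3.94% and 5.70% with TPR A, and 3.51%, 6.90% and 5.93% with TPR D. In nuclear libraries it was 0.303%, 5.92% and 0.280% in control, 0.665%, 0.294% and 0.357% with TPR A, and 0.365%, 0.462% and 0.248% with TPR D. Outside control replicate 2 the nuclear libraries lay below all others, and total and cytoplasmic/ER libraries met at 6.90% in TPR D total replicate 2 and 6.89% in control cytoplasmic/ER replicate 3. The library labelled control nuclear 2 lay within the range of total libraries, and that labelled control total 2 below all nuclear libraries. In bulk RNA such a share cannot tell fewer mitochondria from less RNA in each. Of the FPKM of all 13 mitochondrial mRNAs, the 7 made up 20.4% to 32.0% in every library.

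**Figure D1:**
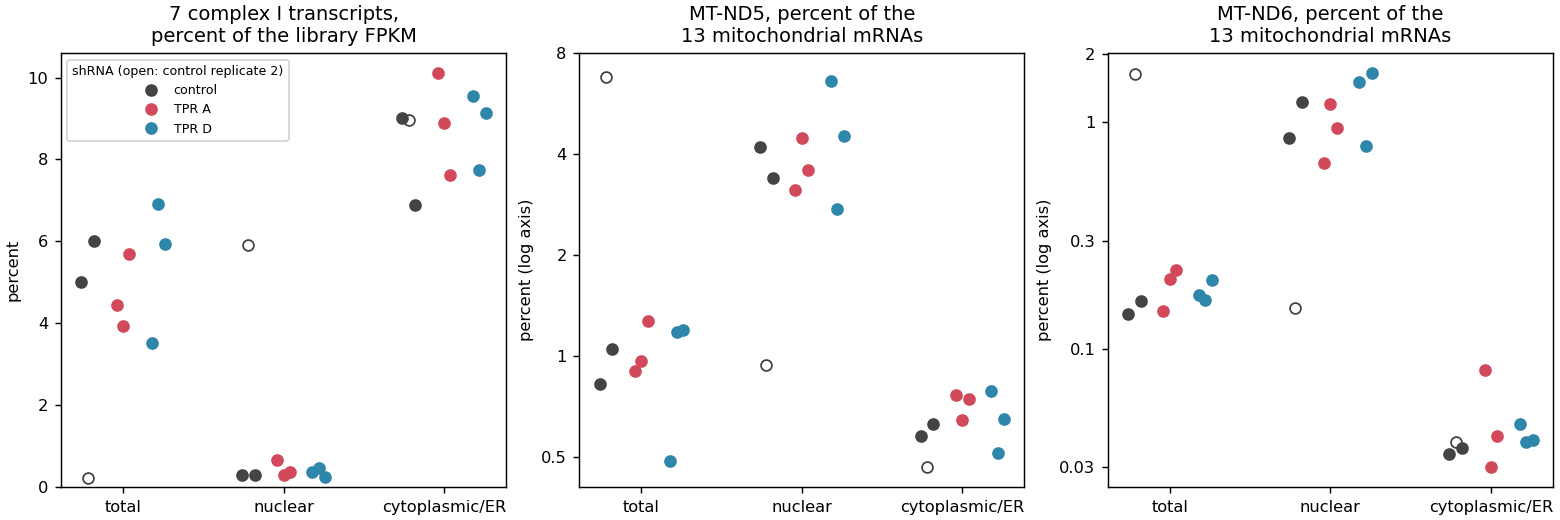
Left, share of the 7 complex I transcripts in the summed FPKM of each library, in percent; middle and right, share of MT-ND5 and of MT-ND6 in the FPKM of the 13 mitochondrial mRNAs, in percent on log axes. Each point is 1 of 27 libraries by fraction and shRNA, open points being control replicate 2; outside those points the 7 together are lowest in nuclear libraries while MT-ND5 and MT-ND6 take their largest part of the mitochondrial mRNAs there.

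FPKM is a level per length, so that the 7 can be ranked within a library. In all 9 groups MT-ND4L, a small membrane subunit, had the highest mean and MT-ND6, a membrane subunit next to it in the complex, the lowest. In the cytoplasmic/ER libraries with TPR D the order was MT-ND4L, MT-ND3, MT-ND4, MT-ND2, MT-ND1, MT-ND5, MT-ND6, and only MT-ND2 and MT-ND1 overlapped. In control cytoplasmic/ER libraries, where MT-ND1 came before MT-ND2, MT-ND4L overlapped with MT-ND3 and MT-ND3 with MT-ND4, as did MT-ND1 with MT-ND2. In the nuclear libraries MT-ND5 stood higher in the order, with the third mean with TPR A and the second with TPR D. In control it was the third in nuclear replicates 1 and 3 and the sixth in the library labelled control nuclear 2, which gave it the sixth mean. It overlapped with both of its neighbours in TPR A and with MT-ND4 in TPR D. The levels of the shortest members, MT-ND4L and MT-ND3, depend most on the fragment length that was subtracted from the transcript length.

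**Figure D2:**
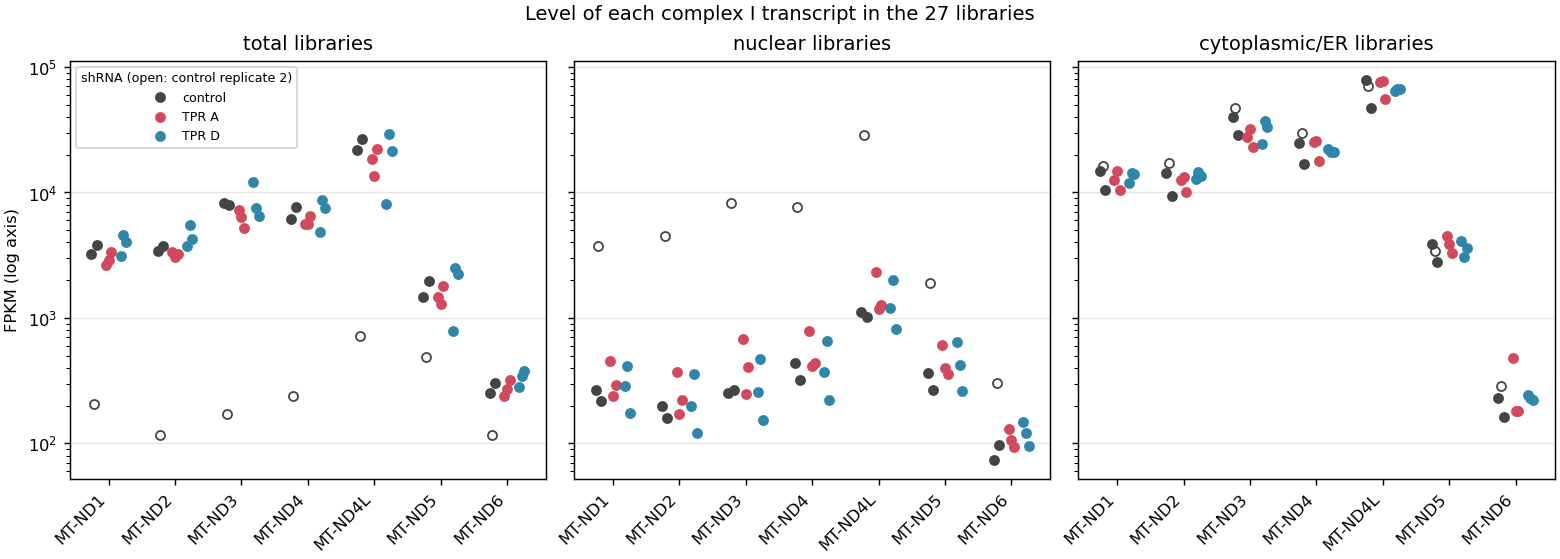
FPKM of each of the 7 transcripts in each of the 27 libraries, on a log axis, by fraction and shRNA; open points are control replicate 2. Outside control replicate 2, MT-ND1 to MT-ND4L span 9299 to 78665 FPKM among cytoplasmic/ER libraries but 121 to 2341 FPKM among nuclear ones, while MT-ND5 is 2778 to 4524 and 262 to 645 FPKM there and MT-ND6 73.6 to 480 FPKM across both.

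MT-ND1, MT-ND2, MT-ND3, MT-ND4 and MT-ND4L behaved alike across fractions, and MT-ND3 showed the widest gap. MT-ND3, a small subunit at the joint of both arms of the complex, was 39761, 46983 and 28651 FPKM in control cytoplasmic/ER libraries, 27439, 32141 and 22928 with TPR A, and 24369, 37197 and 33455 with TPR D. In nuclear libraries it was 250, 8297 and 265 FPKM in control, 684, 247 and 406 with TPR A, and 259, 474 and 154 with TPR D. Every nuclear library thus lay below every cytoplasmic/ER library, the one labelled control nuclear 2 included.

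MT-ND1, a membrane subunit at the site where ubiquinone binds, was 14894, 16292 and 10557 FPKM in control cytoplasmic/ER libraries, 12537, 14713 and 10391 with TPR A, and 11850, 14210 and 14035 with TPR D. In nuclear libraries it was 267, 3724 and 219 FPKM in control, 452, 237 and 291 with TPR A, and 288, 411 and 174 with TPR D. The 3 shRNA groups overlapped in both fractions.

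MT-ND2 and MT-ND4, homologous subunits that each form a proton channel of the membrane arm, had medians of 12974 and 21731 FPKM in cytoplasmic/ER libraries and of 198 and 424 FPKM in nuclear libraries when control replicate 2 was left out. MT-ND4L, which shares its mRNA with MT-ND4, spanned 46901 to 78665 FPKM across cytoplasmic/ER libraries, against 823 to 2341 FPKM across the nuclear ones other than control replicate 2. The FPKM of MT-ND4L was 1.68 times that of MT-ND4 in TPR D total replicate 1 and 2.35 to 3.74 times in all other libraries, although both frames, of 297 and 1378 bases, lie on the same mRNA.

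MT-ND5, a further proton-channel subunit and the longest of the 7 genes, showed a smaller gap between fractions. It was 3859, 3431 and 2778 FPKM in control cytoplasmic/ER libraries, 4524, 3884 and 3276 with TPR A, and 4114, 3036 and 3590 with TPR D. In nuclear libraries it was 363, 1889 and 268 FPKM in control, 613, 400 and 354 with TPR A, and 645, 418 and 262 with TPR D. All 9 cytoplasmic/ER libraries lay above all 9 nuclear libraries.

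MT-ND6 was the exception. It was 230, 286 and 161 FPKM in control cytoplasmic/ER libraries, 480, 182 and 182 with TPR A, and 244, 231 and 220 with TPR D. In nuclear libraries it was 73.6, 304 and 97.4 FPKM in control, 130, 107 and 93.6 with TPR A, and 148, 120 and 95.4 with TPR D. Outside control replicate 2 the nuclear FPKM lay below the cytoplasmic/ER FPKM, by a small margin against the other 6. TPR A cytoplasmic/ER replicate 1 stood above the rest of its fraction. As a share of the summed FPKM the fractions overlapped, at 0.00826% to 0.0173% in these nuclear and 0.00965% to 0.0306% in these cytoplasmic/ER libraries. In total libraries MT-ND6 was 239 to 375 FPKM outside control replicate 2, so that it was the only member whose median was higher in total than in cytoplasmic/ER RNA.

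The N/C difference, the log2 level in the nuclear minus that in the cytoplasmic/ER library of the same culture, separated the 7 into 3 tiers. For MT-ND1 it was -5.77, -2.08 and -5.55 in the control cultures, -4.78, -5.94 and -5.15 with TPR A, and -5.35, -5.10 and -6.29 with TPR D. For MT-ND5 it was -3.38, -0.81 and -3.34 in control, -2.87, -3.26 and -3.20 with TPR A, and -2.66, -2.85 and -3.73 with TPR D. For MT-ND6 it was -1.61, 0.14 and -0.69 in control, -1.88, -0.74 and -0.96 with TPR A, and -0.71, -0.94 and -1.16 with TPR D.

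Within each of the 9 cultures MT-ND5 was above the other 5 members of the plus strand, and MT-ND6 above MT-ND5. Without control replicate 2 the median N/C difference over 8 cultures was -5.45 for MT-ND1, -5.91 for MT-ND2, -6.63 for MT-ND3, -5.75 for MT-ND4 and -5.61 for MT-ND4L, folds of 43.8, 59.9, 99.4, 53.8 and 48.9 lower in the nuclear fraction. It was -3.23 for MT-ND5 and -0.95 for MT-ND6, folds of 9.40 and 1.93. The value of MT-ND4 minus that of MT-ND5 was -3.24 to -2.11 in these 8 cultures and -1.10 in control replicate 2. These orders are descriptions without a test. The summed FPKM was 1466469 or more in each cytoplasmic/ER library and 963316 or less in each nuclear library, so shares of the library gave smaller gaps. Median shares in nuclear and cytoplasmic/ER libraries without control replicate 2 were 0.031% and 1.73% for MT-ND3 and 0.0421% and 0.207% for MT-ND5. For MT-ND6 they were 0.012% and 0.0117%, so that by share it was not lower in the nuclear libraries.

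**Figure D3:**
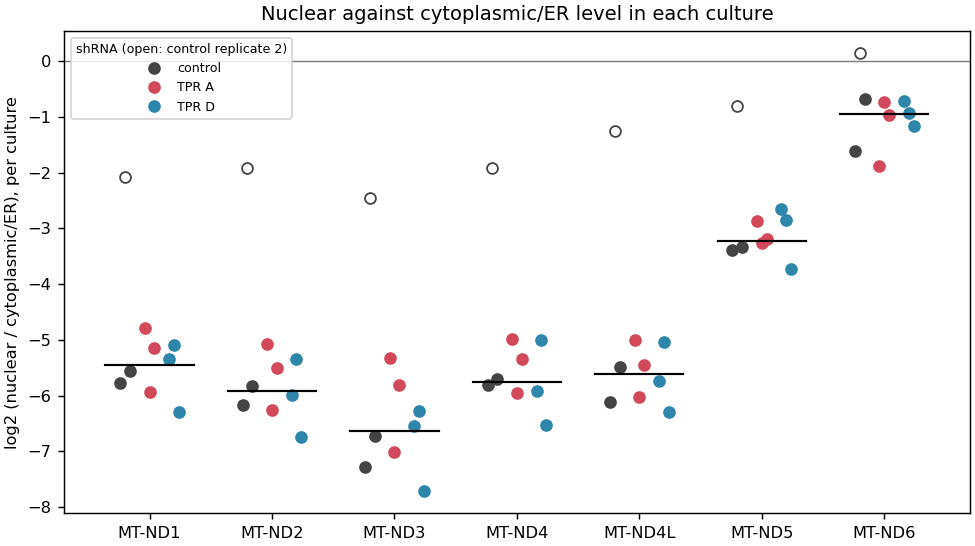
Log2 difference between the nuclear and the cytoplasmic/ER level of each of the 7 transcripts in each of 9 cultures; open points are control replicate 2 and the lines are medians over the other 8 cultures. MT-ND1 to MT-ND4L lie between -7.71 and -4.78, MT-ND5 between -3.73 and -2.66, and MT-ND6 between -1.88 and -0.69 in those 8.

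Ranked by the mean N/C difference of the 9 cultures from the lowest up among the 14624 tested genes, MT-ND3 was number 1, MT-ND2 number 5, MT-ND4 number 7, MT-ND4L number 9 and MT-ND1 number 10. MT-ND5 was number 26 and MT-ND6 number 1459. The other 6 mRNAs of the mitochondrial genome, for subunits of complexes III, IV and V, ranked between 2 and 11, so that 11 of the 13 mitochondrial mRNAs filled the 11 lowest places and MT-ND5 and MT-ND6 were the remaining pair. When control replicate 2 was left out, MT-CO1 moved to number 12 and MT-ND5 and MT-ND6 were at 25 and 1056.

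The limma fit over all tested genes called 6 of 7 members lower in the nuclear than in the cytoplasmic/ER fraction in control cells, 7 of 7 with TPR A and 6 of 7 with TPR D, where 19.2%, 13.3% and 14.6% of all genes tested were called lower. For MT-ND3 the log2 difference was -5.49 ± 1.12 (SE) in control, -6.04 ± 1.12 with TPR A and -6.85 ± 1.12 with TPR D, with limma adjusted p of 0.000633, 0.000433 and 0.000116. For MT-ND5 it was -2.51 ± 0.57, -3.11 ± 0.57 and -3.08 ± 0.57, with adjusted p of 0.00154, 0.000402 and 0.000361. For MT-ND6 it was -0.72 ± 0.43, -1.19 ± 0.43 and -0.94 ± 0.43, with adjusted p of 0.193, 0.0426 and 0.104.

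Without control replicate 2 all 7 were called lower with each shRNA, where the fit called 14.2%, 15.3% and 16.1% of all genes lower, and MT-ND6 had adjusted p of 0.0211, 0.00442 and 0.0183. MT-ND3 was then at -7.0 ± 0.45 in control, -6.04 ± 0.36 with TPR A and -6.85 ± 0.36 with TPR D. MT-ND5 was at -3.36 ± 0.45, -3.11 ± 0.37 and -3.08 ± 0.37. The rise in the gap of MT-ND3 from control to TPR D thus did not hold without that replicate. With the culture as a block, MT-ND6 had adjusted p of 0.0623 in control, 0.00893 with TPR A and 0.0254 with TPR D. That block without control replicate 2 gave limma adjusted p of 0.0107, 0.00328 and 0.00984. The scaling that follows was fitted with all 27 libraries only. Scaled to the genes outside the mitochondrial genome, which put the median of all genes at 0.59, 0.38 and 0.41 in control, TPR A and TPR D, MT-ND6 was at -0.10, -0.81 and -0.51 and lost its call with TPR A (adjusted p = 0.242), while 6 of 7 members were called lower in each of the 3 comparisons. The call of MT-ND6 with TPR A was also lost without any 1 of the TPR A or TPR D replicates (adjusted p of 0.0559 to 0.238). Without control replicate 1, 5 of 7 members were called in control cells, and MT-ND4L was at -3.38 (adjusted p = 0.0526). That fit keeps the library labelled control nuclear 2, and it called 1800 of all 14624 genes lower.

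The makeup of the mitochondrial mRNAs followed the same split, on a measure that needs no scaling between libraries. MT-ND5 made up 0.464% to 0.783% of the FPKM of the 13 mRNAs across cytoplasmic/ER libraries, against 2.74% to 6.60% across nuclear libraries outside control replicate 2. For MT-ND6 the same ranges were 0.0300% to 0.0808% and 0.663% to 1.65%. In the library labelled control nuclear 2 they were 0.936% and 0.151%, both within the ranges of total libraries outside control replicate 2, 0.485% to 1.27% and 0.143% to 0.223%.

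MT-ND3 went the other way, with 4.62% to 6.47% in cytoplasmic/ER and 2.65% to 4.11% in nuclear libraries. MT-ND4 and MT-ND4L took similar parts in both, with medians of 3.94% and 12.1% in cytoplasmic/ER and 4.17% and 12.9% in nuclear libraries without control replicate 2. The ratio of MT-ND5 to MT-ND4 had a median of 0.168 in cytoplasmic/ER, 0.258 in total and 0.835 in nuclear libraries.

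TPR D total replicate 1 had another makeup than the other total libraries outside control replicate 2. MT-ND3 took 7.44% of the 13 mRNAs there against 3.51% to 4.82% in the other 7, MT-ND4L took 5.03% against 10.3% to 15.7%, and MT-ND5 0.485% against 0.824% to 1.27%. The summed share of the 7 in that library, 3.51%, was the lowest of these 8.

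Across the 27 libraries the log2 levels of the 5 members MT-ND1, MT-ND2, MT-ND3, MT-ND4 and MT-ND4L correlated with each other at r = 0.983 to 0.998 and with MT-ND5 at 0.947 to 0.978. MT-ND6 correlated with the other 6 at 0.752 to 0.778. The libraries share fractions and cultures, so these values describe a pattern that the fractions set. Among genes not annotated to the mitochondrial genome, the 5 most like the mean of the 7 were ranked by Pearson's r over 27 libraries. They were EI24 (r = 0.980) and 4 genes whose identifiers had no symbol in the annotation used here. ENSG00000269028 (r = 0.992) and ENSG00000271043 (r = 0.990) led them. What these 4 genes encode was not looked up, and whether they took up reads from mitochondrial RNA was not tested. EI24, again leaving out control replicate 2, had medians of 61.6 FPKM in total, 31.6 in nuclear and 93.0 in cytoplasmic/ER libraries. That range was much narrower than those of the members other than MT-ND6.

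The study compared TPR-depleted with control cells to find transcripts whose level or N/C difference depends on this pore protein. No member was called with either shRNA in total, nuclear or cytoplasmic/ER RNA or in the N/C difference: limma called 0 of 7 in each of the 8 comparisons, and 0 of 7 had an unadjusted p under 0.05. Of all genes tested, 0.821% and 0.745% were called in total, 0.909% and 0.479% in nuclear and 0.615% and 0.574% in cytoplasmic/ER RNA with TPR A and TPR D, and 0% in the N/C difference, where 214 and 121 genes had an unadjusted p under 0.05, so that a count of 0 of 7 is near the background. With control replicate 2 left out these percentages were 0.280% and 0.479%, 0.499% and 0.287%, 0.574% and 0.417%, and 0%, in the same order. Both shRNAs were compared with the same control libraries. The fit of the N/C difference did not pair the fractions of a culture. With the culture as a block in limma, 1317 and 693 genes had an unadjusted p under 0.05 with TPR A and TPR D. That block also called 0 genes, and the lowest adjusted p of a member was 0.647.

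In cytoplasmic/ER RNA the log2 change of the 7 ran from -0.44 to 0.25 with TPR A (adjusted p of 0.913 to 0.999) and from -0.25 to 0.12 with TPR D (0.991 to 0.999). MT-ND3 had the lowest value with each shRNA, -0.44 ± 1.12 (SE) with TPR A and -0.25 ± 1.12 with TPR D. MT-ND5 was 0.25 ± 0.57 and 0.12 ± 0.57. Without control replicate 2 the SEs fell to between 0.31 and 0.45, the changes ran from -0.28 to 0.42 and from -0.09 to 0.29, and again 0 of 7 were called. The scale used here takes the middle gene as fixed, and on it the median of all genes moved by -0.02 with each shRNA.

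In total RNA all 7 values were above 0, from 0.46 to 1.55 with TPR A and from 0.61 to 2.03 with TPR D, with SEs of 0.43 to 1.12. In nuclear RNA all 7 were below 0, from -1.10 to -0.24 and from -1.61 to -0.12. These signs did not all hold without control replicate 2. Without it the changes in total RNA ran from -0.41 to 0.01 with TPR A and from -0.44 to 0.35 with TPR D, and those in nuclear RNA from 0.38 to 0.68 and from 0.03 to 0.51, with 0 of 7 called in each.

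The log2 change of the N/C difference was -1.21 to -0.47 with TPR A and -1.39 to -0.21 with TPR D in all cultures, and -0.04 to 0.96 and -0.06 to 0.28 without control replicate 2. The value furthest from 0 without it was that of MT-ND3 with TPR A, whose N/C differences were -5.32, -7.01 and -5.81 against -7.28 and -6.72 in control replicates 1 and 3. One TPR A culture thus lay between the 2 control cultures.

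**Figure D4:**
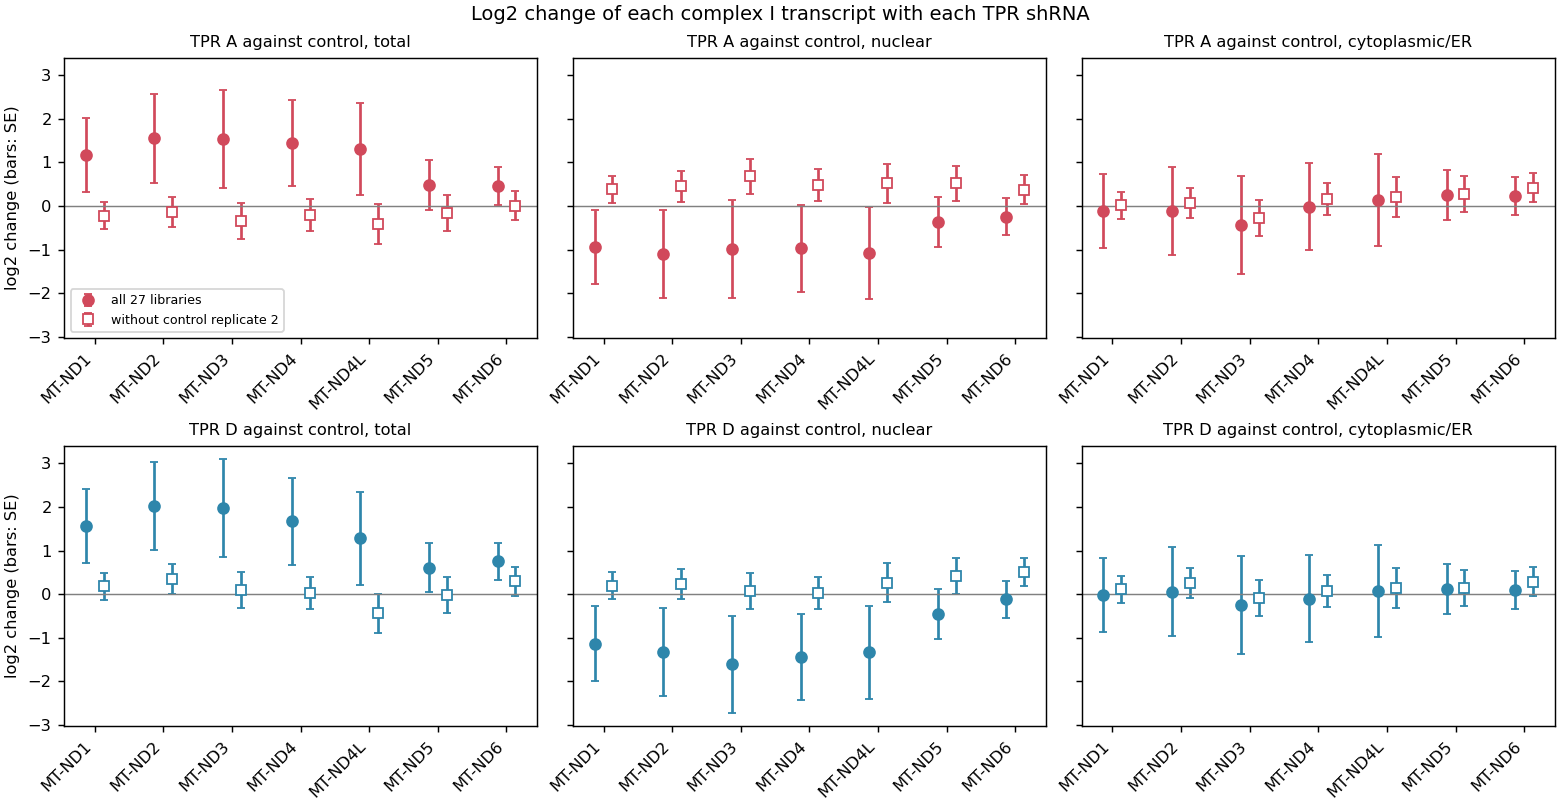
Log2 change of each transcript with TPR A (top) and TPR D (bottom) against control in total, nuclear and cytoplasmic/ER RNA; points are limma estimates and bars are SEs, filled for all 27 libraries and open without control replicate 2. In total and nuclear RNA the filled and open points lie apart for MT-ND1 to MT-ND4L, as for MT-ND3 with TPR D in total RNA (1.98 filled, 0.10 open), and no point passed the test.

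In an exact permutation test of the 6 TPR-depleted against the 3 control libraries of a fraction (2-sided, 84 splits, smallest possible p = 0.0119), 0 of 28 tests of a member had a p under 0.05. The lowest were 0.0833 for MT-ND6 and 0.131 for MT-ND2 in total RNA and 0.143 for MT-ND3 in cytoplasmic/ER RNA, with adjusted p over all genes of 0.430, 0.496 and 0.689. Leaving out control replicate 2 (28 splits, smallest possible p = 0.0357), the lowest exact p was 0.143, for MT-ND6 in nuclear RNA (log2 0.44, adjusted p = 0.655). No member's TPR-depleted libraries lay all above or all below the control libraries in any fraction, with or without control replicate 2. With all libraries 3.94% of all genes had both shRNAs above and 2.97% below control in total RNA, and 2.97% and 3.23% in nuclear RNA. The shares were 2.50% and 2.89% in cytoplasmic/ER RNA, and 3.08% and 1.52% in the N/C difference. Without control replicate 2 these shares of all genes were not computed.

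The labels describe replicate 1 in another style than replicates 2 and 3, and the comparisons were therefore also taken within them. In replicate 1 alone the 7 log2 differences from control ran from -0.23 to 0.05 in total, 0.81 to 1.51 in nuclear and -0.46 to 1.14 in cytoplasmic/ER RNA with TPR A. With TPR D they ran from -1.36 to 0.61, -0.23 to 1.03 and -0.66 to 0.14. The nuclear values of TPR A replicate 1 were the highest of the 8 nuclear libraries outside control replicate 2 for 5 of the 7 members, all but MT-ND5 and MT-ND6. In replicates 2 and 3 alone 0 of 7 were called with either shRNA, where limma called 0.00684% of all genes in total, 0.0342% in nuclear and 0.0205% in cytoplasmic/ER RNA with TPR A and 0% in the other 5 comparisons. In control cells 2 of 7, MT-ND1 and MT-ND3, were called lower in the nuclear fraction there, against 10.9% of all genes. That fit keeps the library labelled control nuclear 2, which was nearest to the total libraries. The N/C difference of MT-ND3 was -2.45 in control replicate 2 and -6.72 in control replicate 3. Without control replicate 2 all 7 were called lower.

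In their median, the nuclear genes of complex I had a much smaller gap between fractions than the mitochondrial ones. The median N/C difference of the 37 nuclear-encoded subunits was -0.51 over 8 cultures without control replicate 2 (range of the cultures -0.68 to -0.08), against -5.64 for the 7 members, -5.89 for the other 6 mitochondrial mRNAs and 0.00 for all genes. In control replicate 2 it was -1.30 for the subunits and -1.91 for the members. In control, TPR A and TPR D cells 24, 4 and 7 of the 37 were called lower in the nuclear fraction and 1 was called higher in each, NDUFS1, the largest subunit of the NADH-binding arm (log2 0.91 ± 0.20, 1.03 ± 0.20 and 0.93 ± 0.20, with limma adjusted p of 0.00141, 0.000796 and 0.00151). The counts called lower were 11, 4 and 8 when control replicate 2 was left out. Of all genes tested, 19.2%, 13.3% and 14.6% were called lower with all libraries, and 14.2%, 15.3% and 16.1% without that replicate. Those called higher with all libraries were 20.2%, 15.2% and 17.2%. The counts called lower in TPR A and TPR D cells are near these shares. Those in control cells, 24 of 37 with all libraries and 11 of 37 without control replicate 2, are above them.

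With the TPR shRNAs limma called 0 of the 37 subunits in each of the 8 comparisons, and 0 to 2 of them had an unadjusted p under 0.05. Their N/C difference was above that of control in 36 of 37 with each shRNA, the median change being 0.59 in TPR A cells, 0.50 in TPR D cells and 0.00 over all genes; the comparisons share the control libraries. Without control replicate 2 it was above 0 in 36 and 32 of 37, with medians of 0.38 and 0.27. The lowest p values were those of NDUFA13 (1.16 ± 0.61) and NDUFA1 (0.90 ± 0.48), small subunits of the membrane arm, with TPR A (limma adjusted p = 0.986 for both) and of NDUFA2 (0.78 ± 0.43) and NDUFA1 (0.84 ± 0.48) with TPR D (adjusted p = 1 for both). Leaving out control replicate 2 these were 0.70 ± 0.49, 0.57 ± 0.49, 0.58 ± 0.47 and 0.51 ± 0.49. In cytoplasmic/ER RNA the lowest p with TPR D was that of NDUFB2, a membrane-arm subunit, at -1.0 ± 0.29 (limma adjusted p = 0.151), and -0.85 ± 0.33 without control replicate 2 (adjusted p = 0.412).

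Of the 18 assembly factors, proteins that build complex I without staying in it, limma called 0 in each of the 8 shRNA comparisons, with 0 or 1 at an unadjusted p under 0.05. Between fractions 2 were higher in the nucleus with each shRNA, NDUFAF7 (log2 0.95, 0.78 and 0.81 in control, TPR A and TPR D) and NDUFAF1 (0.90, 1.2 and 1.14), and 7, 4 and 4 were lower; without control replicate 2, 4 were lower with each. The shares of all genes called higher in these comparisons were 20.2%, 15.2% and 17.2%, and those called lower are given above. DMAC2 had the lowest p in total RNA with both shRNAs, at -0.52 ± 0.25 with TPR A (limma adjusted p = 0.395) and -0.70 ± 0.25 with TPR D (adjusted p = 0.197), and -0.31 ± 0.27 and -0.48 ± 0.27 without control replicate 2 (adjusted p of 0.900 and 0.658).

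Of the 24 nuclear genes for mitochondrial transcription and RNA processing, on which the members' mRNAs depend, limma called 0 in each of the 8, with 0 or 1 at an unadjusted p under 0.05. Between fractions 11, 12 and 12 were called higher and 1, FASTK, lower in the nuclear fraction in control, TPR A and TPR D cells, where 20.2%, 15.2% and 17.2% of all genes were called higher. Leaving out control replicate 2 gave 11, 15 and 13, where 15.6%, 17.4% and 19% of all genes were called higher. PNPT1, a subunit of the mitochondrial RNA-degrading complex, was at 1.75 ± 0.23, 1.70 ± 0.23 and 1.94 ± 0.23 and LRPPRC, which stabilizes mitochondrial mRNAs, at 1.53 ± 0.21, 1.37 ± 0.21 and 1.42 ± 0.21. LRPPRC also had the lowest p of the list in total RNA with TPR A, at -0.63 ± 0.21 (limma adjusted p = 0.186), and SUPV3L1, a helicase of the same degrading complex, had the lowest with TPR D, at -0.45 ± 0.18 (adjusted p = 0.270). When control replicate 2 was left out these were -0.40 ± 0.21 and -0.20 ± 0.16 (limma adjusted p of 0.645 and 0.792), and the median change of the list in total RNA went from -0.18 to 0.08 with TPR A.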

How the data were processed

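Poly(A)+ RNA from total, nuclear and cytoplasmic/ER fractions of U2OS cells was sequenced from strand-specific libraries. The authors estimated transcript abundances with Salmon on GENCODE 19 protein-coding and lncRNA transcripts (hg19), summarized them per gene and deposited FPKM values for 34464 genes; Salmon's version is not given in the sources used here, and the authors also used DESeq2, which was not used here because no counts were analysed. FPKM holds no depth; from 28487 low values of 5936 genes with 1 transcript, with 240 nt subtracted from the length, 87.7% lay within 0.1 read of a whole number, too few to treat as counts. By that estimate 1 FPKM of a 1-kb transcript stood for 31.7 to 87.4 reads per library. The lowest FPKM of a member, MT-ND6 in control nuclear replicate 1, stood for 959 reads. Reads were not estimated for MT-ND3 and MT-ND4L, which were too short after that subtraction.

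Samples were grouped by the labels' shRNA and fraction. FPKM was divided by median-of-ratios factors, and log2(FPKM + 0.1) of the 14624 genes with a mean above 1 was fitted with limma 3.58.1 (R 4.3.3) on all 27 libraries in 9 groups, with a trended prior, Benjamini-Hochberg adjustment over all genes and a threshold of 0.05. Fold changes are on this log2 scale, and shares and levels are on deposited FPKM. Exact permutation tests and tables (Python 3.11.15, numpy 2.4.6, pandas 2.3.3) and figures (matplotlib 3.10.9) followed. The code was tested on simulated data. Symbols for 32776 genes came from GENCODE 44; sequences were read from GRCh37, and nuclear copies were found with blastn 2.17.0.

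The members and the gene lists were chosen with earlier results of these data known. All 7 members were named, and of each list the genes with the lowest p in a comparison or, between fractions, called genes with large changes; those named among the called genes, SUPV3L1 and the marker examples were picked after their values were seen. The 5 genes most like the members were ranked by Pearson's r.

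Nuclear and cytoplasmic/ER libraries of a culture deviated together (r of 0.223 to 0.468 over the 9 cultures), so that the culture pairs them. Replicate numbers across shRNAs did so in 3 of the 9 shRNA pairs by fraction. Alternatives were other scalings, pseudocounts and minimums, no trend, blocks by replicate or culture and leaving out each replicate; replicates 2 and 3 alone, and blocks without control replicate 2, were added after seeing the data.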

Additional observations from a re-analysis of the deposited data

Results flagged for a closer look

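Across the 9 libraries of a fraction, 42 sets of values (levels and mitochondrial shares of the 7 genes) were examined for a highest or lowest library whose gap to the nearest other, divided by the range, was above Dixon's 95% critical value, and 15 had one. Chance gives about 1 in 20 for a single set, and these sets are not independent, since the members vary together. The library labelled control total replicate 2 was far below the other total libraries for MT-ND1 (207 FPKM), MT-ND2 (116 FPKM) and MT-ND4 (238 FPKM). In it MT-ND5 and MT-ND6 made up 6.78% and 1.63% of the 13 mitochondrial mRNAs, far above the other total libraries.

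The library labelled control nuclear replicate 2 was far above the other nuclear libraries for all 7 members, with 3724 FPKM for MT-ND1, 4458 for MT-ND2, 8297 for MT-ND3, 7712 for MT-ND4, 28489 for MT-ND4L, 1889 for MT-ND5 and 304 for MT-ND6. These 12 values come from the libraries labelled control total 2 and control nuclear 2, which over all tested genes were nearest to the nuclear (r = 0.973, against 0.940 for total) and the total libraries (r = 0.977, against 0.944 for nuclear). Whether their labels were exchanged was not tested by any independent record.

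TPR A cytoplasmic/ER replicate 1 stood above the other cytoplasmic/ER libraries for MT-ND6, with 480 FPKM and 0.0808% of the mitochondrial mRNAs. TPR D total replicate 1 stood above the other total libraries for the share of MT-ND3, at 7.44%.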

How the results depend on the processing

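The members called with the TPR shRNAs numbered 0 in all 162 recomputed counts over 8 comparisons. In those fits limma called 0 to 462 of all genes tested, which numbered 14624 in the main fit. Of 63 recomputed counts of members called lower in the nuclear fraction, 61 were 6 or 7, where 683 to 4055 of all genes were called lower. The exceptions, both in control cells, were 5 without control replicate 1 and 2 with replicates 2 and 3 alone (over single left-out replicates 5 to 7). Both fits keep the library labelled control nuclear 2, and they called 1800 and 1591 of all 14624 genes lower.

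The directions of change that turned did so mostly without control replicate 2. The median log2 change of the 7 members, 1.31 with TPR A in total RNA, ran from -0.20 to 2.25 when single replicates were left out and was -0.27 with a replicate block without control replicate 2. With TPR D it ran from 0.10 to 2.34 in total (0.06 with that block), from -2.15 to 0.23 in nuclear (0.16) and from -2.0 to 0.12 in N/C (0.12 with either the replicate or the culture block). Over left-out replicates the changes with TPR A in total RNA ran from -0.22 to 1.95 for MT-ND1, -0.13 to 2.43 for MT-ND2, -0.35 to 2.48 for MT-ND3, -0.20 to 2.37 for MT-ND4, -0.41 to 2.25 for MT-ND4L and -0.15 to 0.92 for MT-ND5. With TPR D they ran from -0.44 to 2.22 for MT-ND4L and -0.02 to 1.14 for MT-ND5. In nuclear RNA with TPR A they ran from -1.66 to 0.39 for MT-ND1, -1.95 to 0.45 for MT-ND2, -1.86 to 0.68 for MT-ND3, -1.81 to 0.49 for MT-ND4, -1.89 to 0.52 for MT-ND4L, -0.90 to 0.52 for MT-ND5 and -0.66 to 0.38 for MT-ND6. With TPR D they ran from -1.85 to 0.19, -2.18 to 0.23, -2.48 to 0.07, -2.28 to 0.03, -2.15 to 0.26, -0.99 to 0.42 and -0.54 to 0.51 for the same genes in that order. In N/C they ran from -2.12 to 0.31 for MT-ND4L and -1.04 to 0.24 for MT-ND5 with TPR A, and from -2.31 to 0.12 and -1.01 to 0.28 with TPR D. The N/C change with TPR A also turned without control replicate 2 for MT-ND1 (0.37), MT-ND2 (0.38), MT-ND3 (0.96) and MT-ND4 (0.32), and the TPR A medians turned from -0.97 to 0.49 in nuclear RNA and from -0.82 to 0.32 in N/C. MT-ND6 in cytoplasmic/ER RNA with TPR A ran from -0.25, without TPR A replicate 1, to 0.47, and was -0.23 with replicates 2 and 3 alone. The cause was not tested.

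With a replicate block 0 of 7 members were called with either shRNA in each comparison, and 6 of 7 between fractions in control and TPR D cells. That block called 0 to 462 of all 14624 genes in the shRNA comparisons. Between fractions it called 3322 genes lower in control and 2634 in TPR D cells. Pairs of replicate numbers across shRNAs correlated above 0.1 throughout in total RNA between control and TPR A (0.136 to 0.323) and between TPR A and TPR D in nuclear (0.131 to 0.266) and cytoplasmic/ER RNA (0.397 to 0.596), and not throughout in the other 6. With the culture as a block MT-ND6 in TPR D passed the threshold between fractions, and no other member's call changed.

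Scaled to genes outside the mitochondrial genome, limma called 5740 genes higher and 813 lower in the nuclear fraction in control, 3794 and 688 with TPR A and 4128 and 824 with TPR D, against 2948 and 2814, 2224 and 1940, and 2512 and 2140.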

Other observations

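Over the 13 mitochondrial mRNAs, gene length and the median N/C difference without control replicate 2 had Pearson's r of 0.23 and Spearman's rho of 0.43. Without MT-ND6, the 12 genes of the plus strand had r of 0.77 and rho of 0.65, with longer genes less depleted from the nuclear fraction. The longest genes, MT-ND5 and MT-CO1, had the values nearest to 0 of these 12, at -3.23 and -4.64. Gene length is not mRNA length for all of them: MT-ND4L and MT-ND4, of 297 and 1378 bases, share an mRNA and were at -5.61 and -5.75. The points are genes that share libraries, precursors and base makeup, so these values are descriptions across genes.

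The 4 genes without a symbol that followed the members most closely were abundant, with ENSG00000269028 at medians of 5049 FPKM in total, 667 in nuclear and 16605 in cytoplasmic/ER libraries and ENSG00000271043 at 1405, 153 and 4512. Their sequences were not analysed here, and whether reads from mitochondrial RNA were assigned to them was not tested.

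The change in MT-ND6 from total to cytoplasmic/ER RNA of the same culture was below 0 in 7 of 9 cultures, with a log2 median of -0.67 without control replicate 2, while it was 1.04 for MT-ND5 and 1.61 to 2.11 for the other 5 members.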
